A study of Mus musculus with 4 samples.

Results

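The S100 genes encode small calcium-binding proteins, and the 10 described here lie in the epidermal cluster of the mouse and were chosen by gene symbol (S100a1, S100a3, S100a4, S100a6, S100a8, S100a9, S100a10, S100a11, S100a13 and S100a14). They were among 24346 gene symbols listed for each library, and all 10 were found. RNA was sequenced from hair follicle stem cells (HFSCs) of C3H/HeN mice after 10 passages (10p-HFSCs) and after 48 passages (48p-HFSCs), with 2 libraries in each group. HFSCs were sorted from dorsal skin of adult mice as CD49f+ CD34+ cells and passaged weekly in the serum-free medium M-CnT, and the labels name no other treatment or allele in either group. The labels do not say whether the replicates came from separate cultures, so p-values measure only the spread between these libraries.

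S100 proteins bind calcium through a pair of EF-hands, mostly act as dimers, and change the proteins they touch when calcium rises. Inside the cell they bind annexins, myosin and other cytoskeletal proteins. Some members, above all S100a8 and S100a9, are also released and act as alarm signals in inflamed skin. In the epidermis, several members are made by basal cells and others appear with differentiation or wounding.

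All 10 genes lie on chromosome 3 of mm10 in 2 blocks. The first block holds 8 of them over 184.7 kb from position 90511034 to 90695721, in the order S100a1, S100a13, S100a14, S100a3, S100a4, S100a6, S100a8 and S100a9. S100a11 and S100a10 form the second block, from 93520488 to 93564643, and 2824.8 kb that hold Lor, Sprr and Lce genes of the cornified envelope separate the blocks. S100a1 and S100a13 are read in opposite directions, and their starts are 43 bases apart in GENCODE and 105 bases apart in RefSeq. RefSeq held a promoter window, from 250 bases before to 50 bases after a start, for 8 of the 10 genes on GRCm38.p6, and the windows of S100a1 and S100a13 share 204 bases. The window of S100a13 is shown because both genes moved from very low levels together. It lies on the plus strand at chr3:90514185-90514484, and capitals mark its 14 CG dinucleotides, the letters at which mouse DNA can be methylated.
S100a13: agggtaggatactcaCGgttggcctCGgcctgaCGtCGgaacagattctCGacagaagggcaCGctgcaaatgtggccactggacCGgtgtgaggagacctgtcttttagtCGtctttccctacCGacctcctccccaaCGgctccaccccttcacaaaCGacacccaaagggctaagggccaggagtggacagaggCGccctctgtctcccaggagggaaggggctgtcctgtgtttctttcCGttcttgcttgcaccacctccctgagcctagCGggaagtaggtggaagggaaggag
Windows of 3 further genes are shown because S100a4 was called higher and S100a8 lower in 48p-HFSCs, and S100a11 had the highest level of the 10 genes in every library. All lie on the plus strand, S100a4 at chr3:90603520-90603819, S100a8 at chr3:90668821-90669120 and S100a11 at chr3:93520246-93520545. Capitals mark every match, on either strand, to any of 5 motifs. The TATA box was searched as TATAAA. The motif of the factor AP-1 was searched as TGAGTCA and its reverse complement. The CCAAT box was searched under the letters of its name. The GC box, known from Sp1 binding, was searched as GGGCGG. The E-box of basic helix-loop-helix factors was searched as CACGTG, and no matches overlapped in these windows.
S100a4: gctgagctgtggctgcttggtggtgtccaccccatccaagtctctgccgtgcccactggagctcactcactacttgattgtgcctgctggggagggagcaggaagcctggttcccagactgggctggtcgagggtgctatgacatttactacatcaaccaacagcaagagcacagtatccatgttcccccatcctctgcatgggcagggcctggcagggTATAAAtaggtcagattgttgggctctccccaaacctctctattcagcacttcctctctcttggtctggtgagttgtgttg
S100a8: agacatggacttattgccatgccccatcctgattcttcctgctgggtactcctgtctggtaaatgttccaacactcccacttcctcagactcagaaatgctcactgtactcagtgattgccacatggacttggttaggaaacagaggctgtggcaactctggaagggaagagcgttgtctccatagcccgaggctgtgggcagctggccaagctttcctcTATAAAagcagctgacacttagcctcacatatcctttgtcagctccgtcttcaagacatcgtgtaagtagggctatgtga
S100a11: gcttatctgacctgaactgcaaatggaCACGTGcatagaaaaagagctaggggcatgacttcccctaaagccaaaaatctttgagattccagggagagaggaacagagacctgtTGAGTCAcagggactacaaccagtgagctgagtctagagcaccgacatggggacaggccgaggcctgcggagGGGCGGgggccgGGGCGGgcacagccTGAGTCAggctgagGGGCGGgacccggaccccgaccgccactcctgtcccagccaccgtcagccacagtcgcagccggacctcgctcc
The TATA box letters began 31 bases before the start of S100a4 and 30 bases before that of S100a8, and 13.6% of 32851 promoter windows of the mouse hold them. TATA box letters were found for 4 of the 8 genes with a window, in 4 of their 11 windows. They also began 52 bases before a start of S100a3 and at the start of S100a9, genes that were not called. The window of S100a11 held AP-1 letters 136 and 38 bases before its start, which 5.2% of windows hold. It held GC box letters at 64, 52 and 24 bases, which 35.7% hold, and windows of S100a3 and S100a9 held them too. The S100a11 window had 15 CG dinucleotides and that of S100a13 had 14, against 2 in S100a4, 4 in S100a8 and a median of 7 over all windows. None of the searched letters was found in the windows of S100a1 and S100a13. CCAAT is held by 37.4% of windows and CACGTG by 7.2%. A match is a description of these letters and not of binding.

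Values are FPKM, read fragments scaled by transcript length and by the depth of the library, as the authors computed them, and they summed to between 581516 and 1414953 in the 4 libraries. Compared with replicate 1 of 10p-HFSCs, the depth read from low values was 71.6% for its fellow library, and 82.9% and 46.7% for replicates 1 and 2 of 48p-HFSCs. Of 9 markers of the labelled cells, Krt5 and Krt14 of basal keratinocytes were at 1217 or more in every library. Cd34 was at 0.234 or less in every library. Itga6, which encodes the sort marker CD49f, and Itgb4 were called higher in 48p-HFSCs, and 0 of the 9 were called lower. Krt15 was at 136 and 82.6 after 10 passages and 425 and 18.8 after 48. Epcam was lower in both 48p-HFSC libraries but was not called. The paper reports CD34 protein on most cells of both groups. Why Cd34 RNA was low beside this was not tested. Replicate 2 gave higher values for short transcripts. Among 594 tested genes whose longest transcript is under 1000 bases, the median of replicate 2 minus replicate 1 on the log2(FPKM + 1) scale was 0.38 in 10p-HFSCs and 0.86 in 48p-HFSCs, against -0.01 in both groups for the 10018 longer genes. This touches the S100 genes, since 8 of 10 have a longest transcript under 1000 bases, as do 5.60% of tested genes. All 10 were higher in replicate 2 than in replicate 1 of 10p-HFSCs, and 7 of 10 were in 48p-HFSCs.

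**Figure D1:**
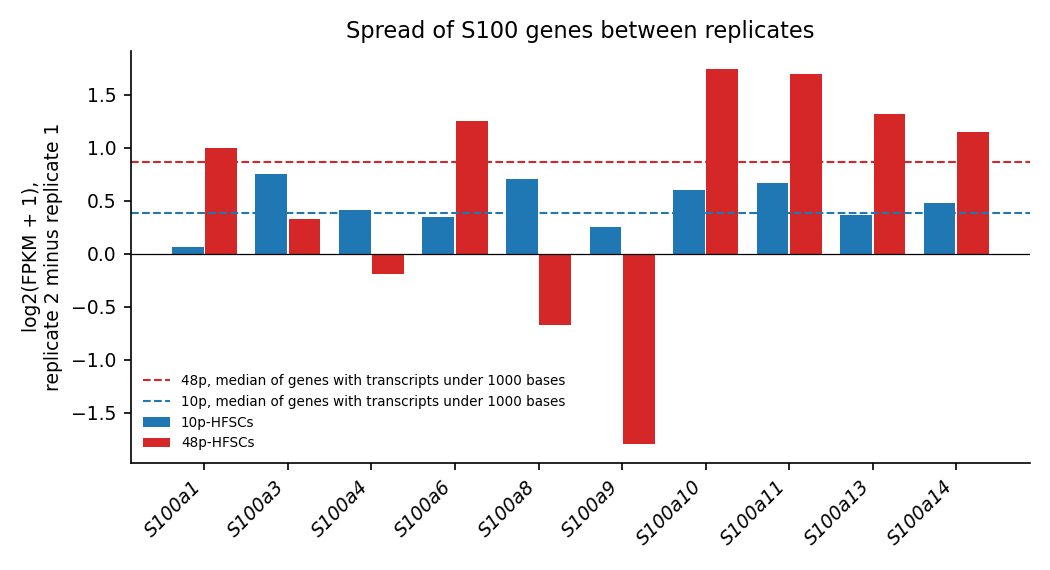
Bars give replicate 2 minus replicate 1 of each S100 gene on the log2(FPKM + 1) scale, blue for 10p-HFSCs and red for 48p-HFSCs, and dashed lines give the medians of tested genes with transcripts under 1000 bases (0.38 and 0.86). S100a10, S100a11 and S100a14 lie above the dashed line of each group. S100a1, S100a6 and S100a13 lie above it in 48p-HFSCs alone, and S100a3, S100a4 and S100a8 in 10p-HFSCs alone. In 48p-HFSCs, S100a4, S100a8 and S100a9 are below 0.

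The share of all FPKM held by the 10 genes together was 1.08% and 1.27% after 10 passages, and 2.02% and 2.65% after 48. S100a11 was the highest in every library, followed by S100a6 and then S100a10. S100a14 was above S100a4 in both 10p-HFSC libraries and below it in both 48p-HFSC libraries, with S100a4 at 0.790 and 0.757 times the FPKM of S100a14 in 10p-HFSCs and at 2.60 and 1.03 times in 48p-HFSCs. S100a8 stood 6th in both 10p-HFSC libraries and 9th in replicate 1 and replicate 2 of 48p-HFSCs, where S100a9 stood 6th in replicate 1 and last in replicate 2. In 10p-HFSCs, S100a13 and S100a1 were the lowest of the 10, far below the others.

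**Figure D2:**
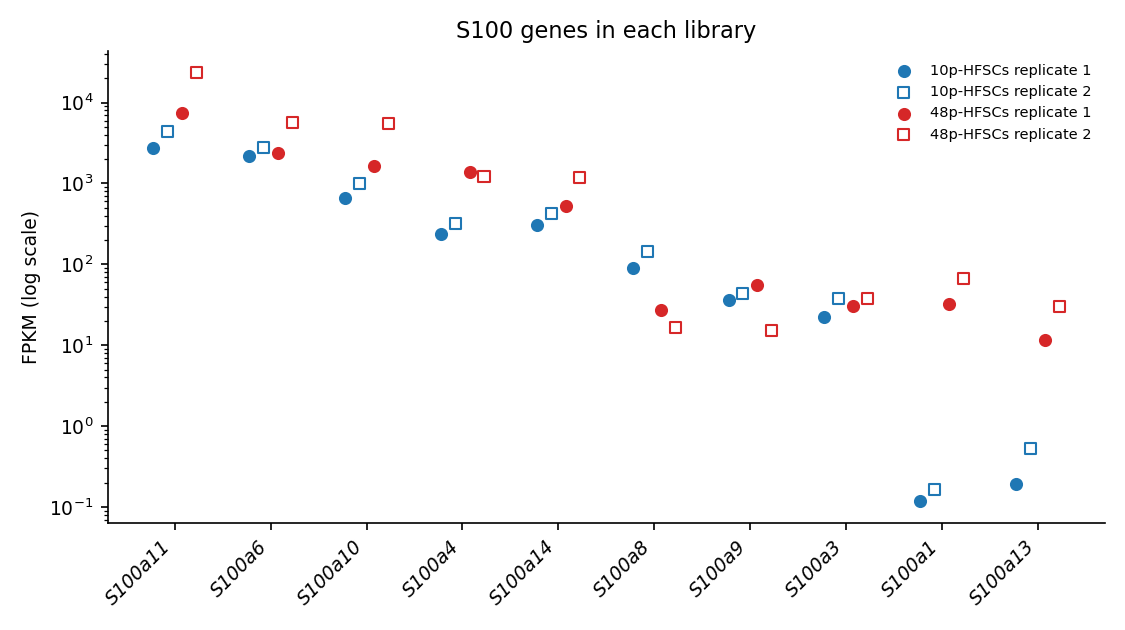
Points give the FPKM of each S100 gene on a log axis, blue for 10p-HFSCs and red for 48p-HFSCs, circles for replicate 1 and squares for replicate 2. S100a1 and S100a13 are under 1 in both blue libraries and above 10 in both red ones, S100a8 is lower in both red libraries, and the colors overlap for S100a3, S100a6 and S100a9.

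Groups were compared on the log2(FPKM + 1) scale with limma over the 11018 genes that reached an FPKM of 1 in 2 or more libraries, and a gene was called at an adjusted p under 0.05 and a log2 difference of at least 1 in either direction. All 10 S100 genes passed the filter, S100a1 and S100a13 through the 48p-HFSC libraries alone, so that these genes had to differ. Of the 10, 3 were called higher in 48p-HFSCs (S100a1, S100a13 and S100a4), where 10.8% of all tested genes were called higher. Of these 3, only S100a4 also reached an FPKM of 1 in 10p-HFSCs. S100a8 was the 1 gene called lower, where 9.15% of all tested genes were. Either way, 4 of 10 were called, beside 19.9% of all tested genes, and the other 6 were not. For 6 genes each 48p-HFSC value exceeded each 10p-HFSC value, as it did for 31.7% of all tested genes. For S100a8 each was lower, as for 34.3%. Of the 594 tested genes with transcripts under 1000 bases, 22.9% were called higher and 5.2% lower. Each 48p-HFSC value exceeded each 10p-HFSC value in 292 of these 594, and each was lower in 70. The median log2 difference of the 10 genes was 1.51, with S100a1 and S100a13, which had to differ, included. It was -0.03 over all tested genes and 0.74 over those with transcripts under 1000 bases. For the 10 genes it was 0.79 without replicate 2 of 48p-HFSCs, 0.85 after quantile normalization and 0.92 after rescaling to TPM (all genes -0.56). With a correction for transcript length and GC content it was 1.0. For 1 gene alone, the smallest two-sided p that exact permutation of 2 and 2 libraries allows is 0.333. The fits that left out 1 library of 10p-HFSCs rest on the spread between the 48p-HFSC libraries, which limma draws in part from other genes of like level. The calls of S100 genes did not hold in these fits, and calls over all genes were far fewer too. A call lost there is thus not a measure of the spread of that gene alone.

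S100a1, best known from heart and skeletal muscle where it binds the ryanodine receptor and the calcium pump SERCA, was at an FPKM of 0.118 and 0.165 after 10 passages and 32.7 and 66.4 after 48. Both libraries of 48p-HFSCs were far above both of 10p-HFSCs. The means were 0.142 ± 0.033 and 49.6 ± 23.8 (SD, n = 2 each), and the log2 difference was 5.38 (standard error 0.39, limma adjusted p = 0.0011). S100a13, which takes part in the release of FGF1 and interleukin-1α without a signal peptide, was at 0.191 and 0.532 after 10 passages and 11.6 and 30.4 after 48. Its log2 difference was 3.88 (standard error 0.47, limma adjusted p = 0.0044), and again the groups did not overlap. The means of S100a13 were 0.362 ± 0.242 and 21.0 ± 13.3 (SD, n = 2 each). With the correction for transcript length and GC content both calls remained, at log2 differences of 4.66 for S100a1 and 3.17 for S100a13. Without replicate 1 or replicate 2 of 10p-HFSCs, the adjusted p of limma was 0.056 and 0.055 for S100a1 and 0.12 and 0.098 for S100a13, at log2 differences of 5.35 and 5.41, and of 3.70 and 4.06.

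The 10p-HFSC levels of these neighbours were close to the smallest steps seen in their values. After division by the depth ratio between libraries, the S100a1 values stood at 1, 1, 229 and 262 times the value of replicate 1 of 10p-HFSCs, in the order of the 10p- and then the 48p-HFSC libraries, each within 0.1 of a whole number. The S100a13 values stood at 2, 4, 101 and 149 steps, where the step was taken, after the values were seen, as its own value in replicate 1 of 10p-HFSCs divided by 2. Smaller steps would make the values whole too, so the number of fragments is not fixed by this. Counts of whole fragments leave steps of this kind in FPKM values. The ratio of mean FPKM, 349 for S100a1 and 58.1 for S100a13, rests on these low values. Per library, S100a1 was at 0.621 and 0.311 times the FPKM of S100a13 in 10p-HFSCs and at 2.82 and 2.18 times in 48p-HFSCs. Next along the chromosome, 2.275 kb beyond S100a13, S100a14 was above an FPKM of 300 in every library.

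S100a4, a motility-linked protein that binds non-muscle myosin and is often used as a fibroblast marker, was at 240.2 and 320 after 10 passages and 1378 and 1205 after 48. Both 48p-HFSC libraries were above both of 10p-HFSCs and close to each other. The log2 difference was 2.21 (standard error 0.45, limma adjusted p = 0.023), or 4.61 times in mean FPKM. The call ended under the correction for transcript length and GC content, where the log2 difference was 1.51 and the adjusted p of limma 0.051. It also ended without replicate 1 or 2 of 10p-HFSCs, at log2 differences of 2.00 and 2.42. This was not due to the spread of S100a4 itself, whose replicate 2 minus replicate 1 in 48p-HFSCs was -0.19 on the log2(FPKM + 1) scale. The summed level of 9 fibroblast markers went the other way, and its part in the S100a4 values was not tested. Of these markers, Dcn, Lum and Thy1 were listed at 0 in every library, and 7 of the 9 stayed under an FPKM of 1 in every library. Vim and Col1a2 were called lower, and Col1a2 reached the filter through the 10p-HFSC libraries alone. The sum of the list, nearly all of it Vim and Col1a2, was 353 and 388 after 10 passages and 2.53 and 3.32 after 48. In these bulk samples fewer cells of a type and less RNA per cell cannot be told apart.

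S100a8 and S100a9 encode the subunits of calprotectin, the antimicrobial, metal-binding dimer of neutrophils and of inflamed keratinocytes. S100a8 was at 89.2 and 146 after 10 passages and 27.0 and 16.5 after 48. The 48p-HFSC libraries were both lower, by 5.41 times in mean FPKM, and the log2 difference was -2.38 (standard error 0.37, limma adjusted p = 0.010). It was no longer called without replicate 1 or 2 of 10p-HFSCs (limma adjusted p = 0.10 and 0.17), and it was -3.09 with the correction for transcript length and GC content. S100a9 was at 36.1 and 43.3 after 10 passages and 54.8 and 15.1 after 48. The 48p-HFSC libraries of S100a9 lay on either side of the 10p-HFSC libraries, and the difference was -0.43 with a 95% interval from -1.86 to 0.99 (limma adjusted p = 0.62). Without replicate 1 of 48p-HFSCs S100a9 was called lower at -1.33 (limma adjusted p = 0.025), and without replicate 2 the difference was 0.46. The FPKM of S100a8 was 2.47 and 3.38 times that of S100a9 in 10p-HFSCs, and 0.492 and 1.09 times in 48p-HFSCs. Of 11 neutrophil and monocyte markers measured, Mpo, Elane, Camp and Tyrobp were listed at 0 in every library and 9 stayed under an FPKM of 1. The sum of this list was 1.24 and 1.40 after 10 passages and 5.63 and 6.29 after 48. Nearly all of the sum after 48 passages was Ltf (2.39 and 4.29) and Lyz2 (3.04 and 1.96), so its rise rests on these genes. Ltf and Lyz2 were called higher, but both reached the filter through the 48p-HFSC libraries alone and so had to be higher. Cd14 and Fcer1g were lower in both 48p-HFSC libraries and Ptprc was higher, all under an FPKM of 1 in every library.

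S100a10, the partner of annexin A2 at the plasma membrane, was at 658 and 998 after 10 passages and 1643 and 5480 after 48. S100a11, which binds annexin A1 and is a substrate of the cornified envelope, was at 2757 and 4378 after 10 passages and 7342 and 23744 after 48, where it ranked 4th and 3rd of all genes. For both, each 48p-HFSC library was above each 10p-HFSC library, but replicate 2 of 48p-HFSCs was 3.33 times replicate 1 for S100a10 and 3.23 times for S100a11. The log2 differences of 1.89 and 1.93 had 95% intervals from -0.17 to 3.95 and from -1.57 to 5.42 and were not called (limma adjusted p = 0.16 and 0.36). The standard errors of 0.84 and 1.42 depend on the variance trend of limma as well as on the replicates. With a prior variance without the trend they were 0.61 and 0.60, and neither gene was called (limma adjusted p = 0.086 and 0.080). When each library was rescaled to the same summed FPKM (TPM), the median difference of all genes moved from -0.03 to -0.56, and both S100a10 (1.30, limma adjusted p = 0.0062) and S100a11 (1.34, limma adjusted p = 0.0048) were called. Relative to that median they were at 1.86 and 1.90. Without replicate 1 of 48p-HFSCs S100a10 was called at 2.76 (limma adjusted p = 0.032), and without replicate 2 it was at 1.02 (limma adjusted p = 0.22). S100a11 was at 2.77 without replicate 1 (limma adjusted p = 0.098) and at 1.08 without replicate 2 (limma adjusted p = 0.43), not called in either. These 2 neighbouring genes kept nearly the same ratio throughout, with S100a10 at 0.238, 0.228, 0.224 and 0.231 times the FPKM of S100a11 in the 4 libraries.

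S100a6, which binds calcyclin-binding protein and annexin A11 and is abundant in dividing cells, was at 2186 and 2774 after 10 passages and 2396 and 5711 after 48. The groups overlapped, and the log2 difference of 0.59 had a 95% interval from -1.76 to 2.94. The difference was -0.22 after quantile normalization, -0.05 with the correction for transcript length and GC content, and -0.04 without replicate 2 of 48p-HFSCs. S100a14, an epithelial member, was at 304 and 423 after 10 passages and 529 and 1171 after 48. Its difference of 1.13 was not called (95% interval -0.22 to 2.48, limma adjusted p = 0.19), although the groups did not overlap, and it was called without replicate 1 of 48p-HFSCs at 1.70 (limma adjusted p = 0.038). It was 0.56 without replicate 2 of 48p-HFSCs (limma adjusted p = 0.32), 0.56 after quantile normalization and 0.55 after rescaling to TPM. S100a3, a zinc-rich member of the hair cuticle, was at 22.3 and 38.2 after 10 passages and 30.2 and 38.2 after 48. The S100a3 values overlapped, and its log2 difference was 0.21 with a 95% interval from -0.61 to 1.03, but -0.36 after rescaling to TPM (0.20 above the median of all genes) and -0.16 without replicate 1 of 10p-HFSCs. S100a2 lies within the annotated span of S100a3 on the same strand, so reads of these genes could have been split between them.

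**Figure D3:**
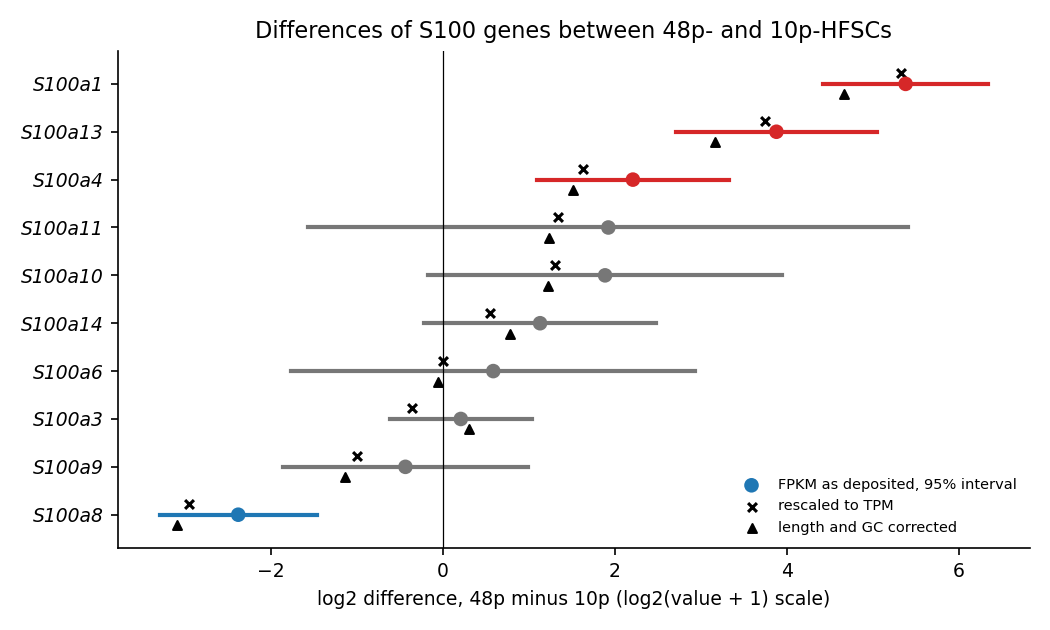
Colored points and bars give the log2 difference of each S100 gene, 48p minus 10p, with its 95% interval from limma, red for genes called higher, blue for the gene called lower and grey for the rest. Crosses give the values after rescaling to TPM and triangles those after the correction for transcript length and GC content, and S100a1 and S100a13 stay the largest under both.

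Of the 8 other S100 genes of the mouse that were looked for, 3 were tested. S100a2, an epithelial member first described as lowered in tumor cells, was at 3.39 and 5.91 after 10 passages and 16.3 and 26.3 after 48, and was called higher (log2 difference 1.98, standard error 0.37, limma adjusted p = 0.018). It was not called after rescaling to TPM or when either 10p-HFSC library or replicate 2 of 48p-HFSCs was left out. S100a16 was at 131 and 185 after 10 passages and 227 and 424 after 48 and was not called (limma adjusted p = 0.16). S100a7a, the mouse relative of psoriasin, was at 7.53 and 8.49 after 10 passages and 5.47 and 32.2 after 48, so that the groups overlapped. S100a5 and S100b had at most an FPKM of 0.455, and S100g, S100z and S100a7l2 were listed at 0 in every library.

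Genes around the S100 genes were taken in chromosome order, from 10 gene symbols before S100a1 to 10 after S100a10. Of 75 such genes 26 were tested. Before S100a1, 0 of 7 tested genes were called higher and 1 lower, Ints3, a subunit of the Integrator complex. Between the first and the last S100 gene, 12 of 15 tested genes were called higher and 0 lower, but 9 of the 12 reached the filter through the 48p-HFSC libraries alone and so had to be higher. Of the other 6 tested genes there, 3 were called higher (Sprr1b, Sprr2h and Sprr2j-ps). The 6 called neighbours with the largest differences were Sprr1b, Sprr2a3, Prr9, Sprr2j-ps, Pglyrp3 and Sprr2h, with log2 differences from 2.76 for Sprr2h to 3.92 for Sprr1b. The Sprr genes encode small proline-rich proteins of the cornified envelope, and as near copies of each other they may share reads. Beyond S100a10, 3 of 4 tested genes were called higher, and these 3 also reached the filter through 48p-HFSCs alone. Over the 528 tested genes of chromosome 3 the median log2 difference was 0.21, and 15.9% were called higher and 7.8% lower. Without replicate 1 or 2 of 10p-HFSCs, 0 of the 26 neighbours were called.

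**Figure D4:**
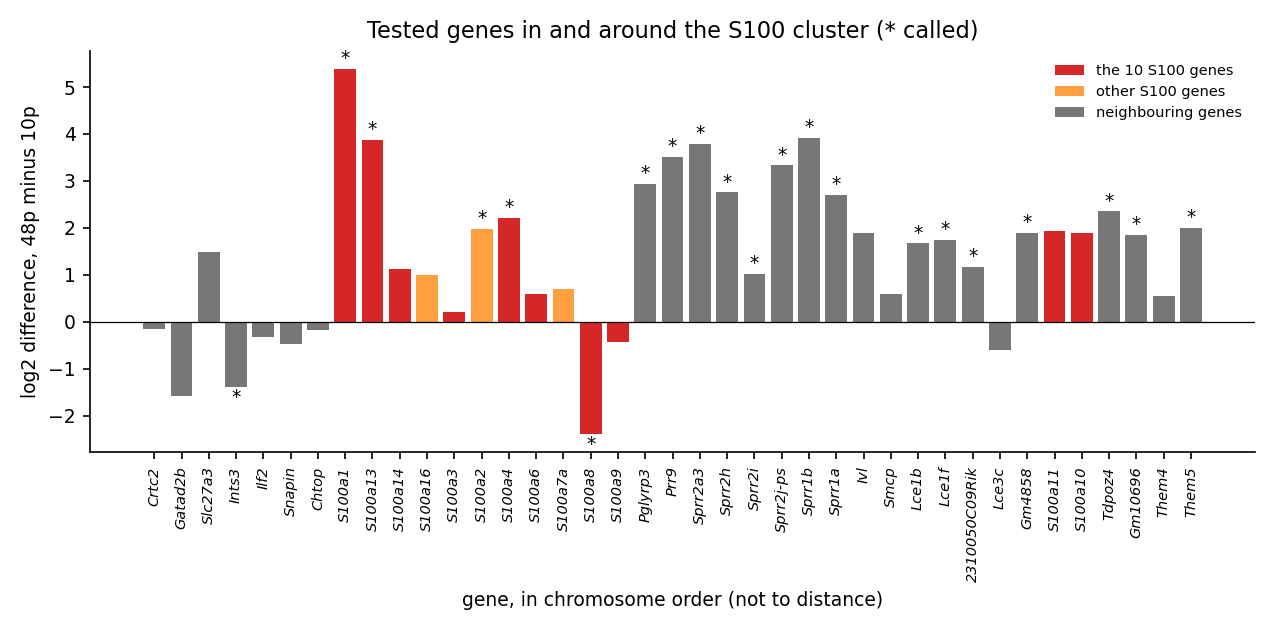
Bars give the log2 difference, 48p minus 10p, of each tested gene from before S100a1 to beyond S100a10 in chromosome order, red for the 10 S100 genes, orange for other S100 genes and grey for neighbours, with an asterisk on called genes. S100a1 (5.38) has the tallest bar and S100a8 (-2.38) the lowest, and 12 of the 15 grey genes between the S100 genes are called higher, 9 of them genes that reached the filter through 48p-HFSCs alone.

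Annexins, calcium-dependent membrane-binding proteins, are the main intracellular partners of S100 proteins. Of 12 annexin genes 9 were tested, 4 were called higher and 0 lower. Over all tested genes, 10.8% were called higher and 9.15% lower. Anxa8 went from 1.17 and 0.598 in 10p-HFSCs to 207 and 150.1 in 48p-HFSCs (log2 difference 6.57, standard error 0.30, limma adjusted p = 0.00064). Anxa5 was at 52.7 and 33.6 after 10 passages and 165 and 285 after 48. Anxa7 and Anxa11, the latter a partner of S100a6, were called higher at log2 differences of 1.76 and 1.12. The partners of S100a10 and S100a11 were not called, with Anxa2 at 647 and 576 after 10 passages and 585 and 1245 after 48. Anxa1 was at 732 and 569 after 10 passages and 593 and 975 after 48.

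Of 22 genes of other intracellular partners, 17 were tested, 4 were called higher and 2 lower. These are 23.5% and 11.8% of the tested partners, beside 10.8% and 9.15% of all tested genes. Il1a, the cytokine exported with S100a13, was at 1.49 and 1.77 after 10 passages and 20.5 and 30.2 after 48 (log2 difference 3.30, limma adjusted p = 0.0019). Fgf1, the growth factor exported with S100a13, went the other way, from 3.64 and 2.98 to 0.255 and 0.0847 (log2 difference -1.88, limma adjusted p = 0.0052). Ahnak, a large scaffold that binds S100a10 with annexin A2, was at 80.3 and 65.8 after 10 passages and 233 and 437 after 48. Tpm1 (tropomyosin) and Myh14 (a non-muscle myosin heavy chain) were called higher at 1.43 and 1.02, and Padi1, a peptidylarginine deiminase, was called lower at -1.75. Both genes called lower, Fgf1 and Padi1, reached the filter through the 10p-HFSC libraries alone and so had to be lower.

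Among 14 genes of receptors and other partners of released S100 proteins, 7 were tested, 3 were called higher and 1 lower. Beside these, 10.8% of all tested genes were called higher and 9.15% lower. Ager, the receptor RAGE, had at most an FPKM of 0.949 in any library. Tlr4, another known receptor of calprotectin, was at 6.44 and 4.87 after 10 passages and 3.43 and 0.259 after 48 and was not called (limma adjusted p = 0.13). Nptn, an S100a8 receptor of keratinocytes, was called higher from 49.3 and 45.2 to 90.5 and 147 (log2 difference 1.27, limma adjusted p = 0.043). Alcam, a cell adhesion molecule, was at 0.0103 and 0.0144 after 10 passages and 11.1 and 8.85 after 48, and it reached the filter through 48p-HFSCs alone. Cd68, a lysosomal glycoprotein, rose by 3.03 on the log2 scale. Cd36, a fatty acid transporter that binds calprotectin with its arachidonic acid, was called lower, from 12.4 and 9.31 to 1.38 and 1.28.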

How the data were processed

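The authors deposited 1 FPKM value per gene symbol and library. Reads of a stranded library were mapped to mm10. The submitters' processing notes name TopHat2 2.1.1, Bowtie2 2.2.8, SAMtools 0.1.18 and Cuffdiff 2.2.1, while the paper names Cufflinks and other versions of Bowtie2 and SAMtools. The annotation, strand setting and treatment of multiple hits are not given in the sources used here. The files give no counts, and low values gave only the relative depth of the libraries, so no counting interval is given.

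Genes were analysed on the log2(FPKM + 1) scale after a filter (FPKM reaching 1 in 2 or more libraries). Fold changes on this scale understate those of low genes. The test between groups was that of limma 3.58.1, run in R 4.3.3 (variance trend, Benjamini-Hochberg over 11018 genes), tested on simulated data. Gene positions and longest transcripts came from GENCODE M21 (GRCm38, the assembly of mm10), and promoter windows from RefSeq. The correction for length and GC content used natural splines with 4 degrees of freedom each. The alternatives were a pseudocount of 0.1, no filter, a filter on mean FPKM, quantile normalization, size factors by the median of ratios, TPM, a prior variance without the trend, the replicate number as a block, the length and GC correction, and each library left out in turn.

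Members and lists were chosen with earlier results of these data known. Named were all S100 genes, called genes of the lists, and up to 6 called neighbours with the largest differences. Ints3, Anxa1, Anxa2, Ager, Tlr4, the fused-type S100 genes and the marker genes were named outside this rule, after their values were seen. Python 3.11.15 was used for the rest.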

Additional observations from a re-analysis of the deposited data

How the results depend on the processing

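Of 140 values of the 10 genes under 14 alternatives, 117 kept their direction and their side of the threshold, and the cause of the other changes was not tested. The alternatives in the filter, the prior variance and the block alone leave the log2 differences as they were, so direction could not turn there. A gene called in neither fit counted as kept. Rescaling to TPM called 5 S100 genes higher, as did quantile normalization, with 2 calmodulin genes, 0 other S100 genes and 623 genes in all higher under TPM. Higher genes then made up 43.4% of calls, against 54.1%. Without the filter (genes above 0 in any library) 637 of all genes were called lower. Differences that turned were those of S100a3 (-0.36 under TPM, and from -0.16 to 0.58 with 1 library left out), S100a6 (-0.22 under quantile normalization, -0.052 with the length and GC correction, with and without the block, and from -0.039 to 1.21 with 1 library left out) and S100a9 (from -1.33 to 0.46 with 1 library left out).

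With each library left out in turn, S100 genes called higher ranged from 0 to 5 and lower from 0 to 2, all genes higher from 35 to 1936 and lower from 140 to 1875. Higher genes made up 20.0% and 19.8% of calls without replicate 1 or 2 of 10p-HFSCs. The ranges were 0 to 3 for other S100 genes, 1 to 4 for annexins, 0 to 9 for intracellular partners, 0 to 7 for receptors, 0 to 2 for calmodulins and 0 to 16 for neighbours. With 1 library in an arm, its spread was assumed to be that of the other group.

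With the replicate number as a block, 3 S100 genes were called higher and 1 lower, and 1613 and 1497 of all genes. Deviations of same-numbered libraries had a correlation of 0.408 across genes, but with 2 numbers this does not establish a pairing. The block together with the length and GC correction was added after the data were seen. Replicate 2 of 48p-HFSCs had the lowest depth as read from low values (46.7%), so its low values are likely the least precise. Mapped fragments themselves were not available.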

Other observations

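Other calcium-binding genes of the epidermis were looked at beside the S100 genes. Of 6 calmodulin genes 4 were tested, and Calm4, a calmodulin-like gene of the epidermis, was called higher, from an FPKM of 3.16 and 3.64 in 10p-HFSCs to 114 and 53.7 in 48p-HFSCs (log2 difference 4.18, standard error 0.40, limma adjusted p = 0.0020). Of 7 fused-type S100 genes of hair and cornified cells, 6 were in the files and 0 were tested. Tchh, Rptn, Hrnr and Flg2 were listed at 0 in every library, and the highest value was that of Crnn, 1.12 in replicate 1 of 48p-HFSCs.

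The genes whose log2(FPKM + 1) values over the 4 libraries lay nearest to S100a1 by Euclidean distance were Slurp1 (0.32), Gmfg (0.34) and H2-K1 (0.36). Those nearest to S100a8 were Serpinb9 (0.54), Sfpq (0.67) and Tfdp1 (0.72). Serpinb9, an inhibitor of granzyme B, was at 118 and 116 after 10 passages and 26.6 and 15.4 after 48. Of 4 Langerhans and T cell markers, Cd207 and Cd3e were listed at 0 in every library, while Cd74 and Cd3g were called higher. Cd74 and Cd3g reached the filter through the 48p-HFSC libraries alone and so had to be higher. The sum of that list was 0.335 and 0.201 after 10 passages and 67.8 and 105 after 48, and its part in the S100 values was not tested.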
